A study of Mus musculus with 20 samples.

Results

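Cytochrome P450 (P450) genes of the mouse kidney were taken by symbol, as Cyp followed by a family number, a subfamily letter and a gene number, leaving out the vitamin D enzymes Cyp27b1 and Cyp24a1. This gave 92 genes of the 24421 symbols in the table. Of these, 48 belong to family 2 and 17 to family 4, 6 are steroid enzymes, 6 are sterol enzymes, 3 act on retinoids and Cyp2r1 on vitamin D, and 11 belong to other families. In all, 13 P450 symbols were left out, namely those vitamin D enzymes and symbols of another form such as Cyp51, Cyp4a12a and pseudogenes.

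P450 enzymes are haem-containing monooxygenases that insert an oxygen atom from molecular oxygen into lipids, steroids, vitamins and foreign compounds. Those of the endoplasmic reticulum take their electrons from the reductase Por, and the mitochondrial ones from Fdx1 and Fdxr. In the mouse kidney the best known are the family 4 enzymes, which hydroxylate the end of fatty acid chains, and the Cyp2j and Cyp2c epoxygenases of arachidonic acid, both found chiefly in the proximal tubule. Several are known to differ between male and female mice, and the Cyp4a genes are textbook targets of the fatty acid receptor Ppara.

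The RNA came from kidneys of 12-week-old mice of mixed C57BL/6 and 129/SvJ background, in which loss of fumarate hydratase, the enzyme of the citric acid cycle that Fh1 encodes, was induced in the adult. Fh1-/- mice carried Fh1 fl/fl and R26 CreERT2/CreERT2, and Fh1+/+ mice carried Fh1 +/+ and the same R26 CreERT2/CreERT2 alleles. All received 3 injections of 2 mg tamoxifen, which activates a Cre expressed from the ubiquitous Rosa26 promoter, so the loss was not limited to the kidney or to a cell type. Libraries were made 10 days and 5 days after induction, with 5 Fh1-/- and 5 Fh1+/+ libraries at each day and 16654829 to 25001294 counts in each. Values are CPM, counts scaled to 1 common library total after TMM normalization, and fold changes are Fh1-/- over Fh1+/+. The labels number the libraries without naming the mice, so p-values cover only how these libraries vary. A call required an adjusted p under 0.01 and a log2 fold change beyond 0.58 in edgeR's quasi-likelihood test over all genes.

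Some properties of the libraries bear on what follows. Whole-gene Fh1 counts spanned 249 to 421 CPM in Fh1-/- and 224 to 258 CPM in Fh1+/+ kidneys at day 10, and 199.7 to 239 CPM against 219 to 265 CPM at day 5; only exons 3 and 4 are excised, so these counts do not check the genotype. The labels give no sex. In 12 libraries, 4 Y-linked genes summed to at least 106 CPM, and in the other 8 to at most 1.02 CPM. Libraries with Y-linked reads numbered 2 of 5 in Fh1-/- and 3 of 5 in Fh1+/+ kidneys at day 10, and 3 of 5 and 4 of 5 at day 5. Replicates 1 and 3 of Fh1-/- at day 10 stood apart from all others. On the first principal component, which held 41.2% of the variance, they lay at -135 and -137, against -32.9 to 33.9 in the other 18 libraries. Their 12 proximal tubule markers summed to 4831 and 5140 CPM, against 14113 to 20664 CPM in the other Fh1-/- and 18459 to 25214 CPM in the Fh1+/+ libraries of day 10, and 22433 to 31612 CPM against 22995 to 29538 CPM at day 5. Fewer tubule cells and less RNA per cell cannot be told apart in bulk RNA. The main results that rest on these libraries are given with and without them.

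Most P450 genes were silent or nearly so in the kidney, and a small set carried the signal. No read was counted for 9 of the 92 genes, where a count of 0 allows up to 3 reads, or 0.12 to 0.18 CPM by library. A further 20 genes had 1 to 20 reads in all libraries together, and 20 more had at most 148. The other 43 were abundant enough to be tested in at least 1 comparison, and 37 averaged 1 CPM or more. P450 transcripts together took 0.595 to 1.2% of the counts in Fh1-/- and 0.375 to 1.05% in Fh1+/+ kidneys at day 10, and 0.525 to 1.13% against 0.447 to 1.02% at day 5. Cyp4b1, Cyp2j5, Cyp2e1, Cyp4a14 and Cyp4a10 made up 60.9 to 79.4% of this in each library.

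Per kilobase of exon, Cyp4b1, a family 4 enzyme of fatty acids and foreign compounds, ranked highest over the 20 libraries, with a mean of 961 CPM per kb. It was followed by Cyp2j5, a renal arachidonic acid epoxygenase, at 601 CPM per kb and by Cyp2e1, the ethanol-oxidizing P450, at 588 CPM per kb. Cyp4a14 and Cyp4a10, both fatty acid hydroxylases, had 293 and 288 CPM per kb. Neighbours in this order did not differ beyond their spread, since the SD within a group was as large as 1043 CPM per kb for Cyp4b1 and 925 CPM per kb for Cyp2e1. The order also changed with the group. By mean, Cyp2e1 led in Fh1-/- kidneys at day 10 with 1014 ± 925 CPM per kb, followed by Cyp4a14 with 841 ± 482. Cyp4b1 led in Fh1+/+ kidneys at day 10 with 833 ± 665 CPM per kb (SD, n = 5 each). The median of the Fh1-/- kidneys at day 10 was higher for Cyp4a14, at 2735 CPM, than for Cyp2e1, at 1599 CPM.

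**Figure D1:**
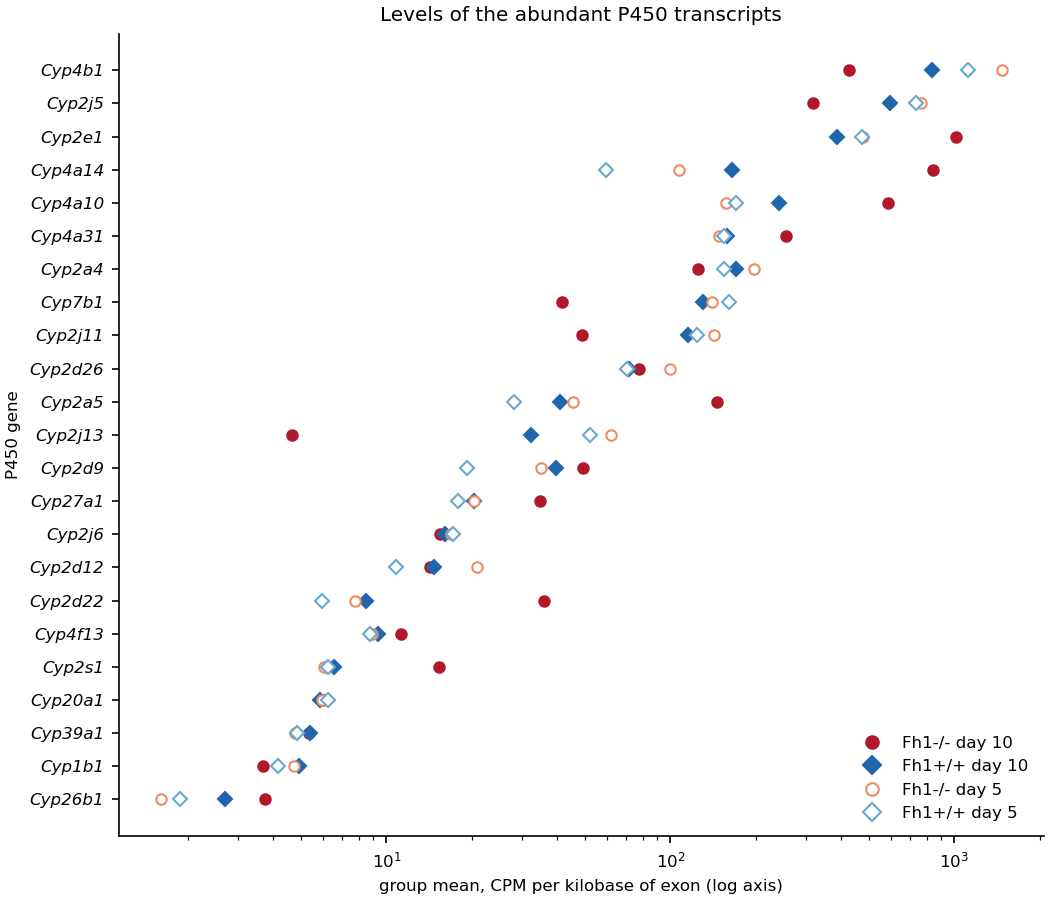
Mean level of the 23 P450 genes with an exon length and a mean of 10 CPM or more, in CPM per kilobase of exon on a log axis; each symbol is the mean of 5 libraries of 1 group, filled for day 10 and open for day 5, circles for Fh1-/- and diamonds for Fh1+/+. The filled red circles of Cyp4a14, Cyp4a10, Cyp2a5 and Cyp2d22 lie to the right of the other groups, and that of Cyp2j13 far to the left.

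Members of a subfamily sit side by side in the genome and can share sequence, which limits how far their reads can be told apart. Cyp4a14, Cyp4a10, Cyp4a31, Cyp4a32 and Cyp4b1 lie in that order on chromosome 4, from 115486200 to 115647723 (GRCm38). Of all 50-base windows of its transcripts, Cyp4a10 shared 29.8% with other genes, Cyp4a31 20.6% and Cyp4a32 43.8%, but Cyp4a14 only 0.235%. The closest pair among the genes that follow is Cyp2a4 and Cyp2a5 on chromosome 7, a steroid and a coumarin hydroxylase, with 36.1% of the windows of Cyp2a4 found in Cyp2a5 and 28.1% of those of Cyp2a5 found in Cyp2a4. Levels of these genes are therefore less certain than those of Cyp3a13, Cyp7b1, Cyp27a1 or Cyp2s1, which shared none.

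The promoters of Cyp2a4 and Cyp2a5 are shown because these paralogues behaved differently in the same kidneys, as described further on. That of Cyp2e1 is shown because this gene had the highest mean level per kb in Fh1-/- kidneys at day 10. Promoter sequences, the 250 bases before the RefSeq start on GRCm38.p6, were found for 72 of the 92 genes. In the first pair of lines capitals mark the bases that differ between the genes, and in the Cyp2e1 line they mark the TATA box. Cyp2a4 lies at chr7:26306942-26307191, Cyp2a5 at chr7:26835089-26835338 and Cyp2e1 at chr7:140763569-140763818, all on the plus strand.
Cyp2a4: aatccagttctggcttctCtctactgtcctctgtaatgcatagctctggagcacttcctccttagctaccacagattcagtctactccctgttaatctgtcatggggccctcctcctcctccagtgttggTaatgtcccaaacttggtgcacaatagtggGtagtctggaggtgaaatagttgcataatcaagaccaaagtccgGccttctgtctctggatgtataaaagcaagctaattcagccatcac
Cyp2a5: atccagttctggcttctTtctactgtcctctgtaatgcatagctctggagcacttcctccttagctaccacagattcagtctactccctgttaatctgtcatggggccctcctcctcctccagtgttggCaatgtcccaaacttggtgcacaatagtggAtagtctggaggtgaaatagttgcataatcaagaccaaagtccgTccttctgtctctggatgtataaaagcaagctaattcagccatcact
Cyp2e1: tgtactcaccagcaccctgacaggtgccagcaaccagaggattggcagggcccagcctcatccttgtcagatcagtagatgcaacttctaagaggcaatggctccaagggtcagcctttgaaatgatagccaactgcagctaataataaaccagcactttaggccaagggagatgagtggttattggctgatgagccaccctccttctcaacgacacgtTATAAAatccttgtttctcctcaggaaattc

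Over 249 aligned bases without gaps, the promoters of Cyp2a4 and Cyp2a5 differed at 4 and were 98.4% identical. Both held the TATA box, searched as TATAAA on either strand, 28 and 29 bases before the start, and an HNF1 core, searched as GTTAAT, 160 and 161 bases before it. TATAAA occurred in 36.1% of the 72 P450 promoters, against 13.0% of 27025 promoters of all genes, and GTTAAT in 11.1% against 6.52%. A CCAAT box on either strand was held by 40.3% against 34.5%, among them that of Cyp2e1. None of the 3 strings contains another, and a match in letters is not a bound site.

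At day 10, the 8 P450 genes with the smallest p-values were all higher in Fh1-/- than in Fh1+/+ kidneys, but none of the 42 tested passed as a call in edgeR, in a comparison where 0.0557% of 14360 genes did. At an adjusted p under 0.05, Cyp2a5 and Cyp2d22 were higher, 2 of 42 against a background of 1.88%, and no P450 gene was lower, against 0.947%. At an unadjusted p under 0.05, 9 were higher and 1 was lower, which is 23.8% of the P450 genes tested and near the 27.0% of all genes. DESeq2 called 5 as higher, namely Cyp2a5, Cyp2d22, Cyp3a13, Cyp4f17 and Cyp4a10, where it called 3.49% of all genes, and none as lower, where it called 2.05%. limma-voom called none. The median log2 fold change was 0.08 over the P450 genes and -0.00073 over all genes, with 22 above 0 and 20 below.

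Cyp2a5, a coumarin hydroxylase of the liver and kidney, had 303, 212, 303, 441 and 256 CPM in Fh1-/- kidneys, against 94.5, 61.7, 146, 76.6 and 45.6 CPM in Fh1+/+ kidneys. Every Fh1-/- library lay above every Fh1+/+ library. The log2 fold change was 1.83 (SE 0.31, adjusted p = 0.0269, edgeR). Cyp2d22, a member of the drug-metabolizing Cyp2d subfamily, likewise did not overlap. It had 182, 72.0, 201, 96.9 and 152 CPM in Fh1-/- kidneys, against 33.8, 31.4, 61.3, 20.5 and 18.4 CPM in Fh1+/+ kidneys, a log2 fold change of 2.08 (SE 0.38, adjusted p = 0.0317, edgeR). These were the only 2 tested P450 genes wholly above Fh1+/+, against 3.96% of all genes, and Cyp2j11 was the only one wholly below, against 3.68%. Without Fh1-/- replicates 1 and 3 the log2 fold change was 1.85 for Cyp2a5 and 1.71 for Cyp2d22, with adjusted p of 0.0649 and 0.091. Leaving out Fh1-/- replicate 2 instead brought Cyp2a5, Cyp2d22 and Cyp3a13 past the call, with adjusted p of 0.00897, 0.00819 and 0.00204 in edgeR, where 1.15% of all genes were called as higher.

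Cyp2a4, the paralogue of Cyp2a5, did not follow it. Its 5 libraries had 183, 264, 184, 245 and 215 CPM in Fh1-/- kidneys, against 436, 135, 239, 393 and 272 CPM in Fh1+/+ kidneys. The groups overlapped, and the log2 fold change was -0.44 (SE 0.28, adjusted p = 0.314, edgeR). Cyp2a5 exceeded Cyp2a4 in CPM in 4 of the 5 Fh1-/- libraries at day 10, and Cyp2a4 exceeded Cyp2a5 in all 15 other libraries.

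**Figure D2:**
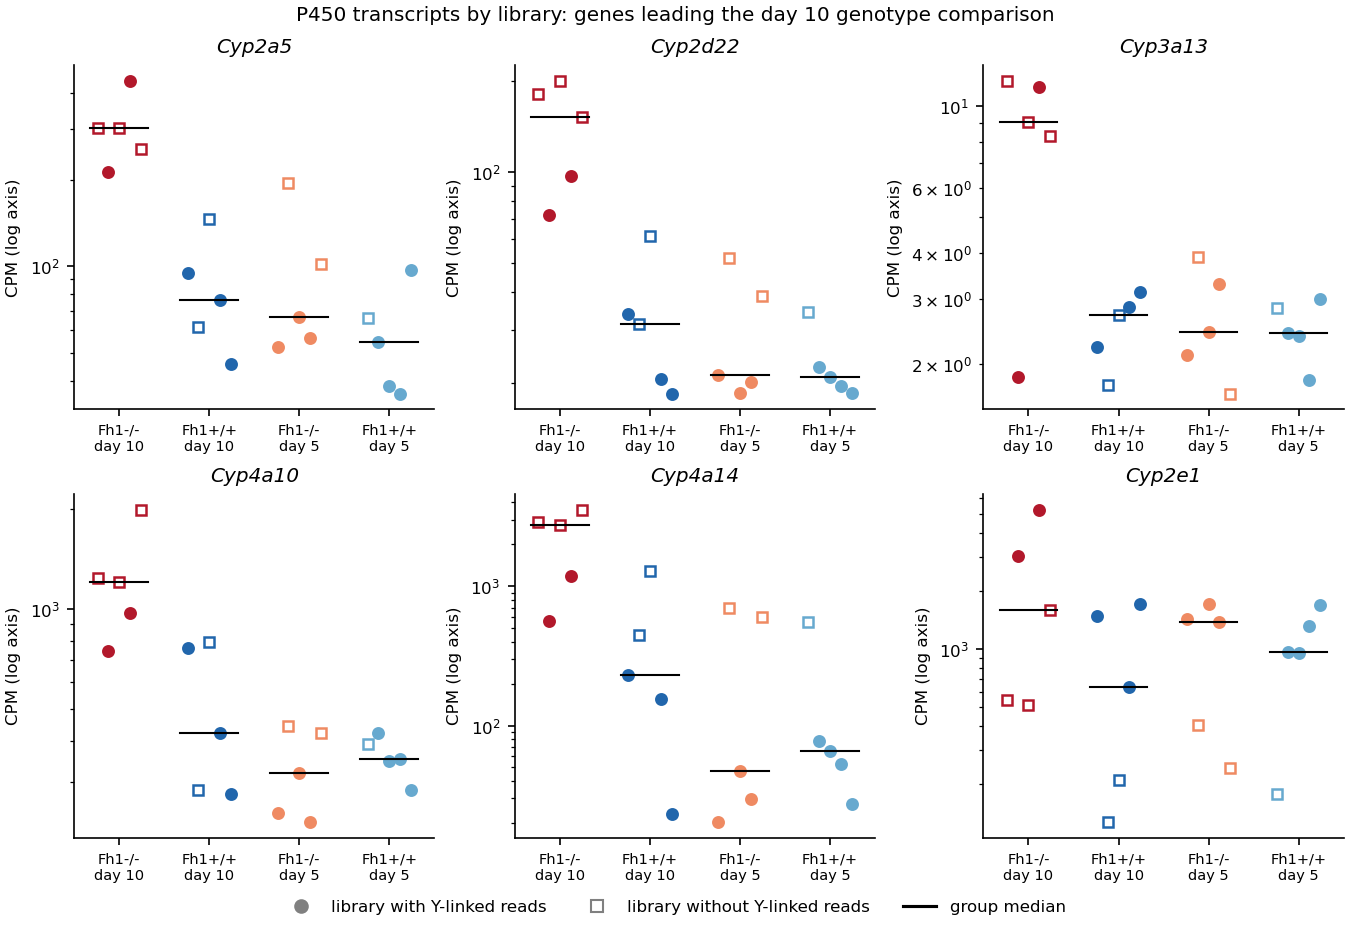
CPM (log axis) of 6 P450 genes in each of the 20 libraries by group; filled circles are libraries with Y-linked reads, open squares those without, and bars are group medians. The 5 Fh1-/- libraries of day 10 lie above all 5 Fh1+/+ libraries of that day for Cyp2a5 and Cyp2d22, and for Cyp4a14 and Cyp2e1 they do so within each kind of symbol.

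Among the family 4 fatty acid hydroxylases, 8 of 12 tested had a log2 fold change above 0 at day 10, with a median of 0.32. At an unadjusted p under 0.05, 4 of the 12 were higher and none was lower, where 27.0% of all genes passed in either direction. Cyp4a10 had 1234, 746, 1208, 972 and 1989 CPM in Fh1-/- kidneys, against 762, 284, 796, 421 and 276 CPM in Fh1+/+ kidneys. The groups overlapped in the upper Fh1+/+ and the lowest Fh1-/- values, and the log2 fold change was 1.27 (SE 0.37, adjusted p = 0.0782, edgeR). Cyp4a14 had 2907, 565, 2735, 1188 and 3540 CPM in Fh1-/- kidneys, against 229, 447, 1282, 154 and 23.2 CPM in Fh1+/+ kidneys. Its log2 fold change of 2.35 was larger than that of Cyp4a10 but had an SE of 0.87 and an adjusted p of 0.127 in edgeR. Cyp4a31, another Cyp4a gene, had a log2 fold change of 0.69 (SE 0.25, adjusted p = 0.122, edgeR). Without Fh1-/- replicates 1 and 3 these log2 fold changes were 1.30 for Cyp4a10, 2.06 for Cyp4a14 and 0.70 for Cyp4a31, with adjusted p from 0.171 to 0.3. In contrast Cyp4b1, the most abundant family 4 gene, had 511, 1794, 528, 1136 and 841 CPM in Fh1-/- kidneys, against 2261, 149.7, 882, 2023 and 4084 CPM in Fh1+/+ kidneys. Its groups overlapped over most of their range, and the log2 fold change was -0.97 (SE 0.68, adjusted p = 0.362, edgeR). Cyp4v3, a fatty acid hydroxylase linked in people to a retinal dystrophy, had a log2 fold change of 0.25 (SE 0.24).

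Cyp4f17, a family 4 gene of the Cyp4f subfamily, differed in a different way. It had 42.3 and 47.6 CPM in Fh1-/- replicates 1 and 3 at day 10, 4.82, 10.4 and 8.94 CPM in the other Fh1-/- libraries, and 4.01 to 5.43 CPM in Fh1+/+ kidneys. Cyp2s1, a family 2 enzyme known from epithelia outside the liver and named here after its values were seen, had 131 and 152 CPM in the same replicates, 26.0 to 39.8 CPM in the other Fh1-/- libraries and 26.3 to 40.3 CPM in Fh1+/+ kidneys. The log2 fold changes of 2.26 for Cyp4f17 (adjusted p = 0.0643) and 1.22 for Cyp2s1 (adjusted p = 0.152, both edgeR) therefore rest on the libraries with the lowest proximal tubule markers. Without them the log2 fold change was 0.78 for Cyp4f17 (adjusted p = 0.146) and -0.03 for Cyp2s1 (adjusted p = 0.941, both edgeR). In the same replicates Spp1, the tubular injury marker osteopontin, took 10.3 and 9.50% of all counts, against at most 1.30% in any other library. Whether the tubule markers have a part in these differences was not tested.

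Of the Cyp2j genes, Cyp2j11 and Cyp2j5 had their lowest values in Fh1-/- kidneys at day 10, but no Cyp2j gene passed an adjusted p of 0.05 there in edgeR. Cyp2j11 had 25.2, 166, 22.5, 105 and 148 CPM in Fh1-/- kidneys, against 225, 209, 211, 218 and 242 CPM in Fh1+/+ kidneys. All 5 Fh1-/- libraries were below the Fh1+/+ range, yet the spread within Fh1-/- left a log2 fold change of -1.25 with an SE of 0.51 and an adjusted p of 0.153 in edgeR. Cyp2j5 had 341, 1352, 297, 1017 and 710.5 CPM in Fh1-/- kidneys, against 1665, 970.2, 891, 1439 and 2000.4 CPM in Fh1+/+ kidneys, a log2 fold change of -0.91 (SE 0.42, adjusted p = 0.194, edgeR). For both genes the lowest values were those of replicates 1 and 3, and without these the log2 fold changes were -0.65 for Cyp2j11 (adjusted p = 0.093) and -0.42 for Cyp2j5 (adjusted p = 0.477, both edgeR). Cyp2j9 had a log2 fold change of 0.42 (SE 0.21) and Cyp2j6 one of -0.07 (SE 0.13), while Cyp2j13 is described with the Y-linked reads. The 12 proximal tubule markers themselves were below 0 in 11 of 12 cases at day 10, with a median log2 fold change of -0.58, and none passed an adjusted p of 0.05 in edgeR. Whether the Cyp2j11 and Cyp2j5 values follow the markers was not tested.

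**Figure D3:**
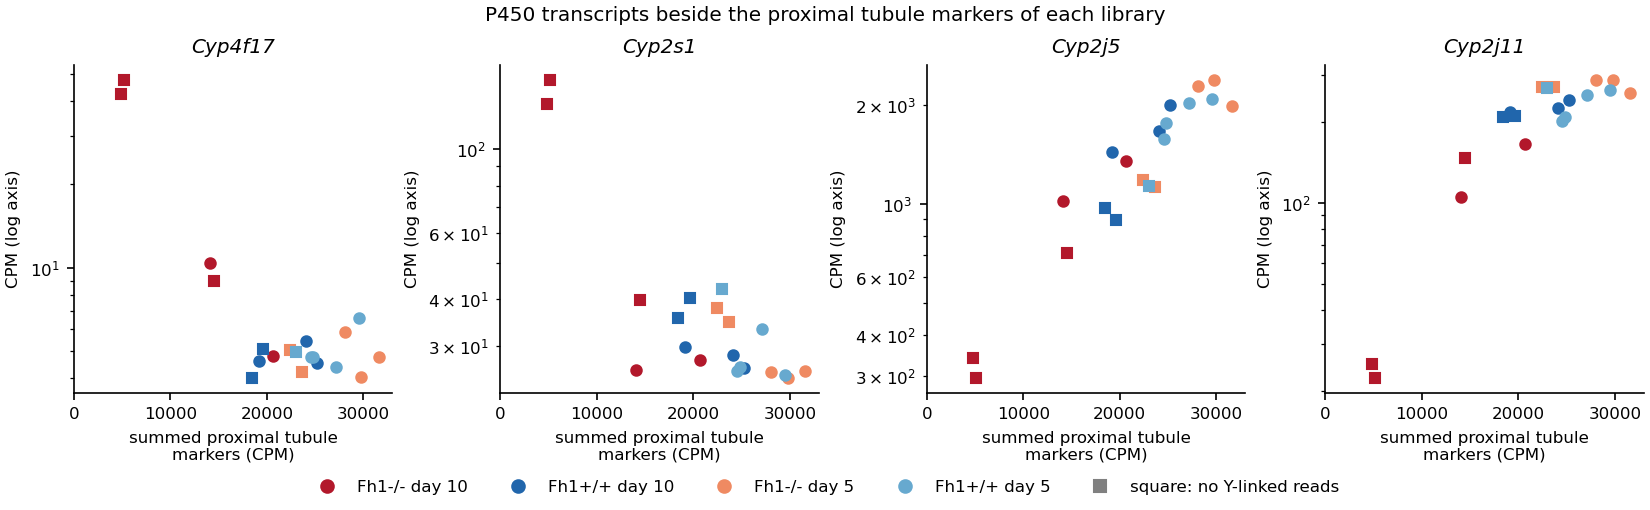
CPM (log axis) of Cyp4f17, Cyp2s1, Cyp2j5 and Cyp2j11 against the summed CPM of 12 proximal tubule markers for each of the 20 libraries; squares are libraries without Y-linked reads. Fh1-/- replicates 1 and 3 of day 10 stand alone at the left, high for Cyp4f17 and Cyp2s1 and low for Cyp2j5 and Cyp2j11.

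Cyp3a13, of the drug-metabolizing family 3, was, beside the sterol gene Cyp27a1, the only gene outside families 2 and 4 among the 10 with an unadjusted p under 0.05. It had 11.7, 1.85, 9.09, 11.3 and 8.31 CPM in Fh1-/- kidneys at day 10, against 2.22, 1.75, 2.71, 2.86 and 3.14 CPM in Fh1+/+ kidneys. Of the 5 Fh1-/- libraries, 4 lay above all Fh1+/+ libraries and replicate 2 lay among them. The log2 fold change was 1.73 (SE 0.41, adjusted p = 0.0531, edgeR), and 1.51 without Fh1-/- replicates 1 and 3 (adjusted p = 0.145).

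Among steroid and sterol enzymes, no gene passed an adjusted p of 0.05 by genotype. Of 6 sterol genes 4 were tested at day 10, with 2 above and 2 below 0. Cyp27a1, the mitochondrial sterol hydroxylase of bile acid synthesis, had 36.4, 88.7, 42.9, 112 and 98.1 CPM in Fh1-/- kidneys and 63.8, 28.7, 47.9, 37.8 and 42.0 CPM in Fh1+/+ kidneys. The groups overlapped through replicates 1 and 3, and the log2 fold change was 0.78 (SE 0.33, adjusted p = 0.165, edgeR). Without those replicates every Fh1-/- library lay above every Fh1+/+ library, and the log2 fold change was 1.19 (adjusted p = 0.051, edgeR). Cyp7b1, an oxysterol and androgen hydroxylase, had 7.12, 221, 4.83, 181 and 36.6 CPM in Fh1-/- kidneys, against 491, 7.01, 8.51, 344 and 561 CPM in Fh1+/+ kidneys. Both groups held libraries at either end, a split described with the Y-linked reads. Cyp39a1 and Cyp46a1, hydroxylases of oxysterols and of cholesterol, had log2 fold changes of -0.02 and 0.12. The bile acid enzyme Cyp8b1 had 56 reads in all libraries together and Cyp7a1, which starts bile acid synthesis, had none. Of the 6 steroid enzymes only Cyp17a1 had enough reads for a test, 2 to 71 in a library, with a log2 fold change of 0.98 (SE 0.82, adjusted p = 0.442, edgeR). Cyp11b2 and Cyp19a1, which make aldosterone and oestrogens, had no read in any library. Reads of Cyp11b1 and Cyp21a1, enzymes of the adrenal cortex, were nearly confined to 3 libraries. Fh1-/- replicate 4 of day 5 had 3 and 13 reads, Fh1+/+ replicate 1 of day 10 had 20 and 48, Fh1+/+ replicate 4 of day 10 had 4 and 12, and the other 17 libraries had none of Cyp11b1 and at most 2 of Cyp21a1. Hsd3b1, an adrenal marker, had 8, 30 and 19 reads in those libraries and 0 to 9 in the others. Of Cyp11a1, which starts steroid synthesis, these libraries had 4, 14 and 9 reads and the others 0 to 4. Other genes of the adrenal cortex list gave a mixed picture. Nr5a1 had 4, 4 and 0 reads in these libraries and 0 to 3 elsewhere. Star had 76, 107 and 93 reads there and 46 to 90 elsewhere, Akr1b7 71, 71 and 55 against 32 to 544, and Mc2r 3, 4 and 4 against 0 to 8. The 6 adrenal cortex markers summed to 32.7 to 90.6 CPM in Fh1-/- and 35.9 to 42.3 CPM in Fh1+/+ kidneys at day 10, and to 28.4 to 39.3 CPM against 30.6 to 40.1 CPM at day 5. The part of these reads in the genotype comparison was not tested.

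Cyp26b1, which degrades retinoic acid, had 4.42, 30.1, 4.83, 31.4 and 29.4 CPM in Fh1-/- kidneys at day 10, against 19.96, 20.1, 14.4, 9.65 and 8.31 CPM in Fh1+/+ kidneys. The Fh1-/- libraries lay on both sides of the Fh1+/+ range, with a log2 fold change of 0.47 (SE 0.56). The 2 low libraries were replicates 1 and 3, and without them the log2 fold change was 1.08 (adjusted p = 0.108, edgeR). The other retinoic acid hydroxylases, Cyp26a1 and Cyp26c1, had 83 and 3 reads in all and were not tested. Cyp2r1, which hydroxylates vitamin D in the liver, had a log2 fold change of -0.39 (SE 0.32), and Cyp1a1, the classical target of the aryl hydrocarbon receptor, one of -0.01 (SE 0.46). With all libraries, the adjusted p of these genes lay between 0.429 and 0.993 in edgeR.

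**Figure D4:**
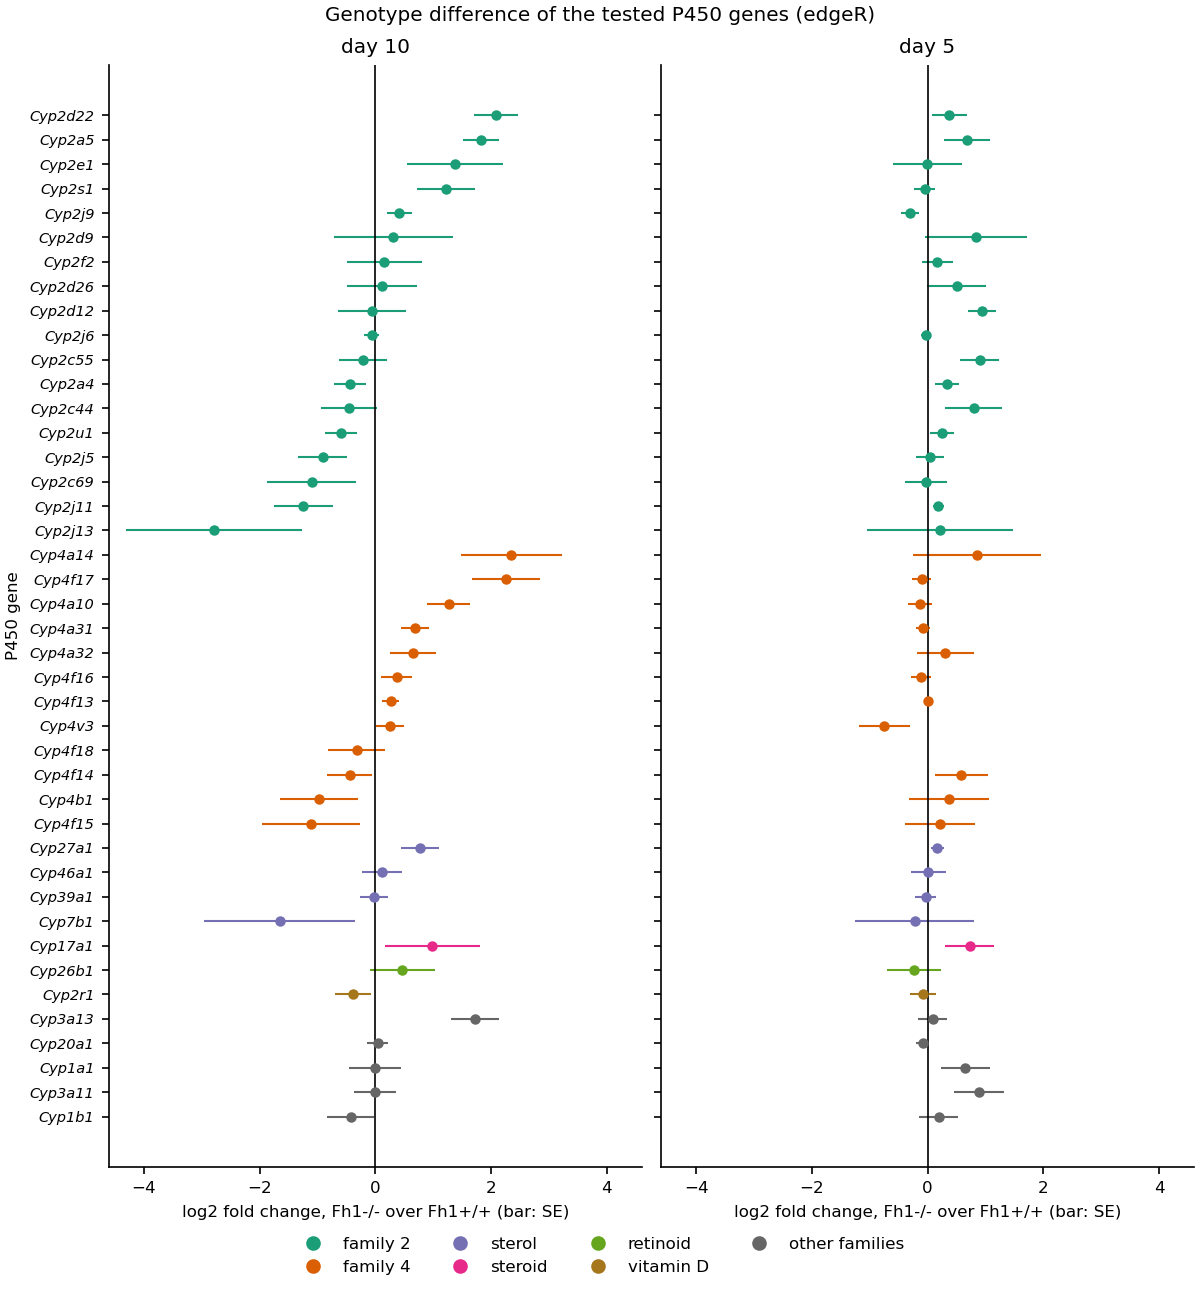
Log2 fold change of Fh1-/- over Fh1+/+ (points) with its SE (bars) for the 42 P450 genes tested in edgeR at day 10, with day 5 beside it where tested, ordered by group of enzymes. At day 10 Cyp2d22 and Cyp2a5 lie farthest above 0 in family 2 and Cyp4a14 in family 4, with wide bars for Cyp2j13 and Cyp7b1; at day 5 all points lie between -0.75 and 0.94.

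At day 5 no P450 gene of the 41 tested was called by edgeR, DESeq2 or limma-voom, where edgeR called 0.0347% of 14404 genes. At an unadjusted p under 0.05, 2 were higher and none was lower in Fh1-/- kidneys, which is 4.88% and near the 4.78% of all genes. Cyp2d12, a Cyp2d gene, was the only P450 gene whose groups did not overlap on the upper side, against 0.542% of all genes, and none lay wholly below, against 0.361%. It had 92.2, 88.2, 57.4, 73.9 and 92.5 CPM in Fh1-/- kidneys, against 54.9, 29.8, 44.9, 56.2 and 23.1 CPM in Fh1+/+ kidneys. Its log2 fold change was 0.94 (SE 0.24, adjusted p = 0.518, edgeR). None of the leading genes of day 10 had an unadjusted p under 0.05 at day 5. Cyp2a5 had a log2 fold change of 0.68 (SE 0.39), Cyp2d22 of 0.37 (SE 0.31), Cyp3a13 of 0.09 (SE 0.25) and Cyp4a10 of -0.13 (SE 0.20). Others with a larger log2 fold change were Cyp2c55 with 0.90 (SE 0.34), Cyp4a14 with 0.85 (SE 1.11), Cyp2d9 with 0.84 (SE 0.88), Cyp2c44 with 0.79 (SE 0.49) and, in the other direction, Cyp4v3 with -0.75 (SE 0.44). Of these only Cyp2c55, a Cyp2c enzyme of arachidonic acid, had an unadjusted p under 0.05, and its adjusted p was 0.96 in edgeR.

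The change of the genotype difference between days was tested directly. No P450 gene of 43 passed, against 0.0335% of 14934 genes, while at an unadjusted p under 0.05 the difference was greater at day 10 for 8 genes and smaller for 3, which is 25.6% of the P450 genes against 20.2% of all genes. DESeq2 called Cyp4f17 alone, where it called 1.81% of all genes, and limma-voom called none. In edgeR Cyp4f17 also had the smallest adjusted p, with 2.35 more at day 10 (SE 0.63, adjusted p = 0.068). This too rests on Fh1-/- replicates 1 and 3, without which it was 0.88 (adjusted p = 0.159, edgeR). Also without them, the change for Cyp2j11 was -0.84 (SE 0.16, adjusted p = 0.0429, edgeR). With all libraries, the log2 fold change was greater at day 10 by 1.71 for Cyp2d22 (SE 0.50, adjusted p = 0.0925), by 1.63 for Cyp3a13 (SE 0.50, adjusted p = 0.0986) and by 1.40 for Cyp4a10 (SE 0.44, adjusted p = 0.103, all edgeR). Without Fh1-/- replicates 1 and 3 of day 10 these were 1.328, 1.419 and 1.425, with adjusted p of 0.255, 0.233 and 0.187 in edgeR.

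Within Fh1-/- kidneys, Cyp4a10 rose by day 10 and was the only P450 gene of 42 called, against 0.576% of 14235 genes. It had 1234, 746, 1208, 972 and 1989 CPM at day 10, against 243, 444, 319, 227 and 421 CPM at day 5, without overlap. The log2 fold change, day 10 over day 5, was 1.89 (SE 0.29, adjusted p = 0.0098, edgeR). This call was near the threshold and was lost when any Fh1-/- library except replicate 2 of day 10 was left out. Without replicates 1 and 3 of day 10, Cyp27a1 alone was called, against 0.144% of 14623 genes. Its log2 fold change was then 1.17 (adjusted p = 0.00675, edgeR). At an adjusted p under 0.05, 7 P450 genes were higher at day 10, against 6.52% of all genes, namely Cyp4a10, Cyp2d22, Cyp4a31, Cyp2a5, Cyp2j9, Cyp3a13 and Cyp4f17. Without replicates 1 and 3, only Cyp4a10, Cyp2d22 and Cyp4a31 of these 7 stayed under 0.05, with adjusted p of 0.0189, 0.0282 and 0.048 in edgeR. For Cyp2a5, Cyp2j9, Cyp3a13 and Cyp4f17 the log2 fold changes were then 1.68, 0.66, 1.41 and 0.75. Their adjusted p were 0.0518, 0.0664, 0.106 and 0.0954 in edgeR. Of the 42 P450 genes, 5 had every value of day 10 above every value of day 5, namely Cyp4a10, Cyp2d22, Cyp4a31, Cyp2a5 and Cyp4f13, against 6.22% of all genes. Cyp2j11 alone lay wholly below, against 6.03%, with a log2 fold change of -1.55 (SE 0.51, adjusted p = 0.071, edgeR). Without replicates 1 and 3 of day 10 it was smaller, at -0.97, but had an SE of 0.15 and an adjusted p of 0.0151 in edgeR. Cyp2d22 had a log2 fold change of 2.21 (SE 0.37, adjusted p = 0.0115, edgeR). At an adjusted p under 0.05 only Cyp2a4 was lower, 1 of 42 against 5.09%. Its log2 fold change was -0.66 (SE 0.19, adjusted p = 0.0482, edgeR), so the Cyp2a paralogues differed in direction. Without replicates 1 and 3 of day 10 that of Cyp2a4 was -0.51 (adjusted p = 0.145, edgeR). Within Fh1+/+ kidneys, none of 42 P450 genes was called between the days, where 0% of 14501 genes were, none had an unadjusted p under 0.05, and DESeq2 and limma-voom called none. The Fh1-/- libraries of each day serve in this comparison and in the genotype comparisons, so these values are not independent of those above.

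Several P450 genes split by the presence of Y-linked reads. Of the 37 genes with a mean of 1 CPM or more, 3 were higher in all 12 libraries with Y-linked reads than in all 8 without, against 1.5% of all genes at that level, and 1 was lower, against 0.92%. Cyp2j13, an epoxygenase gene of the Cyp2j cluster, had a median of 319.6 CPM (28.5 to 526) with Y-linked reads and 2.19 CPM (0.738 to 5.63) without. Cyp7b1 had 444 CPM (181 to 601) with and 7.82 CPM (4.83 to 36.6) without. Cyp4b1 had 3035 CPM (1136 to 5371) with and 603 CPM (149.7 to 882) without. Cyp2s1 was the lower one, at 26.2 CPM (24.8 to 33.4) with and 40.1 CPM (34.9 to 152) without. Cyp2d9, a testosterone hydroxylase, had medians of 128 and 12.2 CPM, and Cyp4a14 had 59.6 CPM with against 989 CPM without, but their ranges overlapped. Over the 20 libraries the level of Cyp4b1 was most like that of Cyp2j13 (r = 0.947 of log2 CPM) and Cyp7b1 (r = 0.916). After removing group means and the effect of Y-linked reads these were 0.848 and 0.548, as a description of libraries that share this split.

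**Figure D5:**
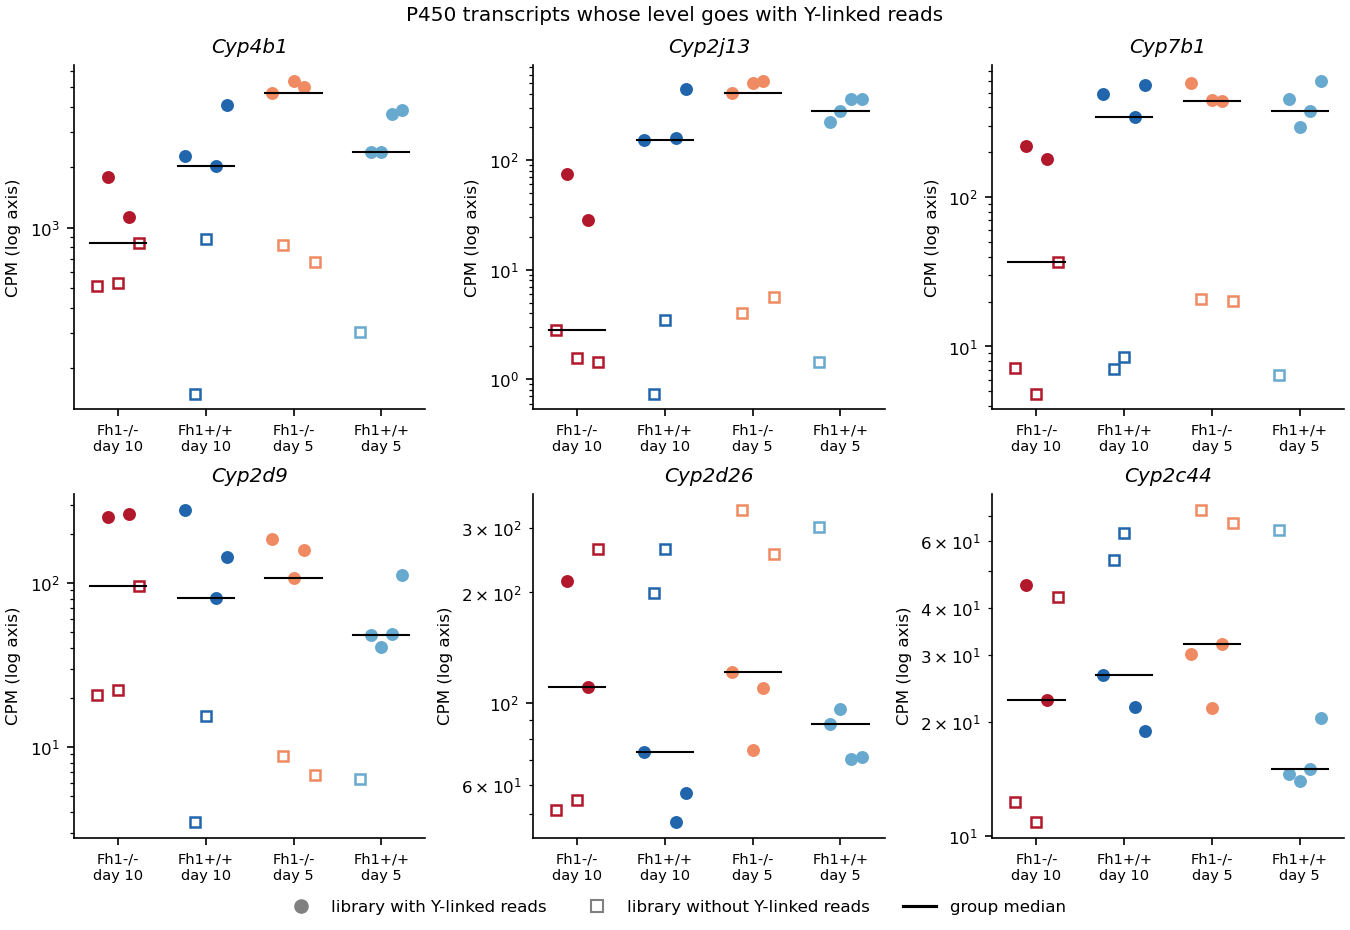
CPM (log axis) of 6 P450 genes in each of the 20 libraries by group; filled circles are libraries with Y-linked reads, open squares those without, and bars are group medians. For Cyp4b1, Cyp2j13 and Cyp7b1 all filled circles lie above all open squares; for Cyp2d26 and Cyp2c44 the squares lie higher in every group except Fh1-/- at day 10.

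The wide errors of these genes in the genotype comparison at day 10 go with this split. Cyp2j13 had 2.83, 75.1, 1.56, 28.5 and 1.43 CPM in Fh1-/- kidneys, against 152, 0.738, 3.48, 157 and 441 CPM in Fh1+/+ kidneys, where replicates 2 and 4 of Fh1-/- and 1, 4 and 5 of Fh1+/+ had Y-linked reads. Its log2 fold change was -2.79 (SE 1.53) without and -1.39 (SE 0.66, adjusted p = 0.221, edgeR) with the presence of Y-linked reads as a covariate. That of Cyp7b1 was -1.65 (SE 1.31) without and -0.11 (SE 0.68) with the covariate. This fit gives 1 difference for both kinds of library, but for Cyp7b1 their estimates differed in sign. With Y-linked reads Cyp7b1 had 181 and 221 CPM in Fh1-/- against 344 to 561 CPM in Fh1+/+ libraries. The log2 fold change was -1.20 (SE 0.23) there and 1.06 (SE 0.92) in libraries without them, where the groups overlapped. For Cyp2j13 the same values were -2.26 (SE 0.63) and -0.12 (SE 0.73), and for Cyp4b1 -0.92 (SE 0.37) and 0.27 (SE 0.72). For Cyp2e1 the difference was larger with the covariate. It had 543, 3035, 514, 5246 and 1599 CPM in Fh1-/- kidneys, against 1487, 127, 210.5, 639 and 1714 CPM in Fh1+/+ kidneys, a log2 fold change of 1.38 (SE 0.83, adjusted p = 0.292, edgeR) that became 2.04 (SE 0.44, adjusted p = 0.0421, edgeR) with the covariate. With it, Cyp2d22 had a log2 fold change of 1.87 (SE 0.23, adjusted p = 0.0103) and Cyp2a5 one of 1.82 (SE 0.32, adjusted p = 0.0262, both edgeR). These made 3 P450 genes higher at an adjusted p under 0.05, against 1.76% of all genes, and none lower, against 1.22%.

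Within each kind of library the comparison could be repeated on 2 Fh1-/- and 3 Fh1+/+ libraries with, and 3 Fh1-/- and 2 Fh1+/+ libraries without, Y-linked reads, a split chosen after seeing the data. In both, Cyp2a5, Cyp2d22, Cyp2e1 and Cyp4a14 were higher in all Fh1-/- libraries than in all Fh1+/+ libraries, and Cyp2j11 and Cyp2j5 lower. These are 4 and 2 of 37 genes, against 7.36% of all genes at that level as higher and 7.34% as lower. Cyp2e1 had 3035 and 5246 CPM in Fh1-/- against 639 to 1714 CPM in Fh1+/+ libraries with Y-linked reads, and 514 to 1599 CPM against 127 and 210.5 CPM in those without. Cyp4a14 had 565 and 1188 CPM in Fh1-/- against 23.2 to 229 CPM in Fh1+/+ libraries with, and 2735 to 3540 CPM against 447 and 1282 CPM without. No P450 gene was called within either kind at these numbers. With the covariate, the change between days in Fh1-/- kidneys was called for 3 P450 genes, Cyp2d22, Cyp4a10 and Cyp4a14, against 2.1% of all genes. The genotype difference then changed between days for 1 of 43, Cyp2d22, with 1.77 more at day 10 (SE 0.25, adjusted p = 0.0023, edgeR), against 0.415% of all genes.

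Genes around the P450 enzymes gave a mixed picture at day 10. The lists named here were chosen with earlier results of these libraries known. Alas1, which sets the rate of haem synthesis, averaged 532 ± 88.6 CPM in Fh1-/- and 196 ± 66.5 CPM in Fh1+/+ kidneys (SD, n = 5 each). Its log2 fold change was 1.44 (SE 0.24, adjusted p = 0.0259, edgeR). Ppox, a later enzyme of the pathway, averaged 17 ± 2.6 CPM in Fh1-/- and 28.8 ± 3.49 CPM in Fh1+/+ kidneys, a log2 fold change of -0.77 (SE 0.14, adjusted p = 0.031, edgeR). The other 10 of 12 haem genes did not pass an adjusted p of 0.05 in edgeR. Of 10 Ppara targets outside the P450 genes, 9 had a log2 fold change above 0, with a median of 1.13. At an unadjusted p under 0.05, 7 of these targets were higher and 1 was lower, where 27.0% of all genes passed in either direction. Among those that passed an adjusted p of 0.05 as higher, which 1.88% of all genes did, were Pdk4, a kinase that restrains pyruvate oxidation, and Angptl4, an inhibitor of lipoprotein lipase. Pdk4 had a log2 fold change of 3.4 (SE 0.63, adjusted p = 0.0338) and Angptl4 one of 2.41 (SE 0.55, adjusted p = 0.0484, both edgeR). None of the 8 electron donors and partners passed, with 4 above and 4 below 0. At an unadjusted p under 0.05, Cyb5b and Fdxr were lower and Pgrmc1 was higher, where 27.0% of all genes passed. The log2 fold change was -0.72 for Cyb5b (SE 0.21, adjusted p = 0.0746), -0.60 for Fdxr (SE 0.17, adjusted p = 0.0755) and 0.07 for Por (SE 0.15, all edgeR). None of 17 transcription regulators passed either, among them Ppara at 0.57 (SE 0.16, adjusted p = 0.0755, edgeR), nor any of 4 epoxide hydrolases and prostanoid synthases. At day 5 no gene of these lists passed an adjusted p of 0.05 in edgeR. Of the haem genes 1 was then higher, Alas1, and 1 lower at an unadjusted p under 0.05, where 4.78% of all genes passed. Alas1 had a log2 fold change of 0.55 at day 5 (SE 0.13, adjusted p = 0.415, edgeR). Its adjusted p was 0.0115 in DESeq2, short of a call. By level over the 20 libraries, Cyp2d22 was most like Cyp4a14 (r = 0.915), Cyp4a10 (r = 0.909) and Cyp2a5 (r = 0.904). After removing group means and the effect of Y-linked reads these were 0.546, 0.734 and 0.582, as a description only.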

How the data were processed

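Kidney RNA was sequenced by the authors after poly(A) selection with a stranded kit. Reads were trimmed with Cutadapt, aligned to GRCm38 with STAR 2.6.0c, filtered on mapping quality and counted per gene with Rsubread on GENCODE annotation. Whether counting used the strand was not given in the sources used here. The values analysed are the raw counts as the authors deposited them, 24421 symbols in 20 libraries, with 0 columns of unmapped samples.

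Each comparison was fitted on its own libraries with edgeR 4.0.16 (TMM scaling, filterByExpr, quasi-likelihood test), with Benjamini-Hochberg adjustment over all genes passing the filter. The change of the genotype difference was an interaction term over all 20 libraries. A call required an adjusted p under 0.01 and an absolute log2 fold change above 0.58, thresholds taken from the study's methods. DESeq2 1.42.0, limma 3.58.1 (voom with quality weights), RLE scaling, other filters, a replicate block, a covariate for Y-linked reads (a sum of 10 CPM separating the libraries), a single fit and leaving out each library were alternatives. The statistics were tested on simulated data. Limits set by a count of 0 cover counting error only.

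The P450 genes and all gene lists were chosen with earlier results of these data known. A gene of these lists is not reported here. Genes were named by rule if called, at an adjusted p under 0.05 by genotype, among the 10 highest in CPM per kb, among the 8 largest genotype log2 fold changes of either day with a mean of 1 CPM or more, or as steroid, sterol, retinoid or vitamin D enzymes with reads. Gene positions are from GENCODE and promoter sequences from RefSeq, both on GRCm38. Shared sequence was counted as windows of 50 bases.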

Additional observations from a re-analysis of the deposited data

Results flagged for a closer look

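In 26 P450 genes the 5 libraries of each of the 4 groups were searched for a single library far from the other 4, by Dixon's ratio at the 95% level. This picked out 7 of 104 sets of libraries, where chance alone gives about 1 in 20. In Fh1+/+ replicate 1 of day 5, the only library of its group without Y-linked reads, 4 genes stood high. Cyp4a14 had 551 CPM, against 77.6 CPM in the nearest other library, Cyp2d26 had 302 CPM against 96.6 CPM, Cyp2c44 had 64.2 CPM against 20.6 CPM and Cyp2d22 had 34.4 CPM against 22.5 CPM. Cyp39a1 was high in Fh1-/- replicate 5 of day 10, with 27.2 CPM against 14.8 CPM. Cyp4f17 was high in Fh1+/+ replicate 4 of day 5, with 6.59 CPM against 4.99 CPM. Cyp4v3 was low in Fh1+/+ replicate 5 of day 5, with 5.19 CPM against 10.0 CPM in the nearest other library.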

How the results depend on the processing

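At day 10, edgeR called 0 P450 genes as higher in Fh1-/- kidneys, DESeq2 called 5, a single fit of all libraries 5 and an adjusted p of 0.05 without a fold limit 2. Leaving out 1 library at a time gave 0 to 3, with 3 only without Fh1-/- replicate 2. For the genotype difference between days, with 0 genes called, DESeq2 gave 1, the Y-linked covariate 1, and that covariate without Fh1-/- replicates 1 and 3 of day 10, chosen after seeing the data, also 1, while leaving out 1 library gave 0 to 2. Between days in Fh1-/- kidneys, with 1 gene called, no filter on low counts gave 0, DESeq2 8, an adjusted p under 0.05 8, the covariate 3, a single fit 7, limma-voom 5, the covariate without replicates 1 and 3 of day 10 (chosen after seeing the data) 10, and leaving out 1 library 0 to 5. Calls over all genes moved likewise. Between days in Fh1-/- kidneys 0.576% of all genes were called, against 0.297% with no filter, 9.01% by DESeq2 and 11.6% at an adjusted p under 0.05. The share was 2.1% with the covariate, 8.66% in a single fit and 3.4% by limma-voom. It was 5% with the covariate without replicates 1 and 3 of day 10, and 0 to 5.38% without 1 library. For the genotype difference between days the share was 0.0335%, against 1.81% by DESeq2 and 0.415% with the covariate. There it was 0.0985% with the covariate without those replicates, and 0.0199 to 1.96% without 1 library. At day 10 it was 5.61% in the single fit against 0.0557%. The cause of these differences was not tested. Counts of genes lower at day 10, higher or lower at day 5, and changed between days in Fh1+/+ kidneys stayed at 0 under every alternative run.

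With the replicate number as a block, 0 P450 genes were called in each comparison, also for the change between days in Fh1-/- kidneys. Over all genes the block called 0.0134% of 14934 for the genotype difference between days and 0% in the other comparisons. Same-numbered libraries deviated with correlations from -0.469 to 0.284. Low correlations cannot exclude that the numbers pair the samples, which the labels do not state. The genotype log2 fold change kept its sign under every alternative in 13 of 26 named genes at day 10, among them Cyp2a5 (1.46 to 2.19) and Cyp2d22 (1.71 to 2.43), whose adjusted p ranged from 1.21e-06 to 0.226 and from 5.63e-06 to 0.219, and in 12 of 26 at day 5. The median over the P450 genes at day 10 ranged from -0.05 to 0.22, so its sign depends on the setting.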
